A study of Homo sapiens with 12 samples.

Results

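The genes described are 9 components through which a cell senses viral RNA and answers interferon: the receptor chains IFNAR1 and IFNAR2, the kinase JAK1, the RNA sensor IFIH1, and the transcription factors STAT2, IRF9, IRF3, IRF7 and IRF1. They were found by symbol among the 28395 genes of the raw count table, each at 1 entry, and all 9 reached the filter of 0.5 CPM in at least 3 libraries that left 15853 genes for testing. CPM is the number of reads of a gene scaled to the normalized total of its library. HCT116 is a poorly differentiated human colorectal cancer cell line, which the study places among lines with low or no EHF and low CDX1. EHF is an epithelial factor of the ETS family and CDX1 a homeobox factor of the intestine. RNA-seq of polyA RNA was used to ask how re-expression of EHF and CDX1, alone or together, changes the transcriptome of these cells, with 3 libraries per line and 12 in all.

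EV cells carried the pcDNA empty vector, and EHF cells carried a pcDNA EHF plasmid, both selected as geneticin-resistant clones. CDX1 cells carried a retrovirus with CDX1 and GFP, and the GFP-positive subset was sorted and expanded. EHF+CDX1 cells were made from the CDX1 line by transfection of the EHF plasmid and selection of geneticin-resistant clones. No line with an empty retrovirus was part of the comparison, so factor, vector and selection cannot be told apart, and each genotype is 1 line. The study speaks of biological replicates for its RNA-seq clustering, in a number other than that of the libraries here. How the 3 libraries of a line relate to separate cultures is not stated, so the p-values measure only the spread between these libraries.

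Total counts ranged from 13523007 to 74186741 per library. EHF averaged 299 CPM in EV, 19312 in EHF, 12.3 in CDX1 and 18708 in EHF+CDX1 cells, and CDX1 averaged 525 CPM in CDX1 and 5419 in EHF+CDX1 cells, with at most 1 read per library in EV cells. The EHF+CDX1 line therefore carried 10.3-fold more CDX1 transcript than the CDX1 line, and the CDX1 line carried 24.3-fold less EHF transcript than EV cells. EV replicate 3 stood apart from the other 2 EV libraries, its counts giving chi-square values of 317 and 288 per degree of freedom against them, while those 2 gave 4.06 against each other. The 6 epithelial markers checked were expressed in all lines, at a summed 2544 to 5599 CPM. Of the 7 leukocyte markers checked, PTPRC had at most 6 reads in any library, while ITGAM, CD14 and LYZ were higher than in EV cells in some lines. The 7 summed to at most 1.76 CPM in EV libraries and to 34.0 to 34.9 CPM in EHF+CDX1 libraries.

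In the textbook pathway, double-stranded RNA in the cytosol is bound by sensors such as MDA5, the product of IFIH1, which signal through MAVS to the latent factor IRF3 and to IRF7, and these switch on interferon genes. Secreted type I interferon binds IFNAR1 and IFNAR2, the receptor-bound kinases JAK1 and TYK2 phosphorylate STAT2, and STAT2 joins IRF9 in the complex ISGF3, which binds the interferon-stimulated response element (ISRE). Receptor chains, JAK1 and IRF3 are present in most resting cells, whereas IFIH1, STAT2, IRF9, IRF7 and IRF1 are themselves targets of the pathway, IRF1 mainly through the gamma-activated sequence (GAS). The 4 first genes are called constitutive and the 5 others inducible here, from this general knowledge.

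To show where such elements lie, the RefSeq promoter table (GRCh38.p14, the build family of the alignment) was searched from 250 bases before to 50 after each annotated start. It matched 6 of the 9 genes, IFNAR1, JAK1, IFIH1, STAT2, IRF9 and IRF1. The ISRE core was searched as GAAANNGAAA and the GAS element as TTCNNNGAA, on both strands, where N is any base. The ISRE core stood in 3.57% of the 35116 promoters of this length and the GAS element in 7.66%. IFIH1 was the only one of the 6 with an ISRE core in the window, at 3 places, of which the 2 farther from the start overlap each other. IRF7, IFNAR2 and IRF3 could not be searched, and inexact forms of the element were not looked for. IRF9 and IRF1 each held 1 GAS element, and neither element was found in the windows of IFNAR1, JAK1 and STAT2. The bases before the start are shown for the 3 genes with a match, 5′ to 3′ on the strand of the gene, at chr2:162318685-162318934 (minus strand) for IFIH1, chr14:24161015-24161264 (plus strand) for IRF9 and chr5:132490774-132491023 (minus strand) for IRF1. Capitals mark the ISRE cores in IFIH1 and the GAS element in IRF9 and IRF1.
IFIH1: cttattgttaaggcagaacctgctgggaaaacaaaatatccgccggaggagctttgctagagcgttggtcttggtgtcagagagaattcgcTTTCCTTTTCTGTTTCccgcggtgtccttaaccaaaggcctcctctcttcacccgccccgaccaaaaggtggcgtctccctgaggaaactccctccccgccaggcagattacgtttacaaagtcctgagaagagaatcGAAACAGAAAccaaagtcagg
IRF9: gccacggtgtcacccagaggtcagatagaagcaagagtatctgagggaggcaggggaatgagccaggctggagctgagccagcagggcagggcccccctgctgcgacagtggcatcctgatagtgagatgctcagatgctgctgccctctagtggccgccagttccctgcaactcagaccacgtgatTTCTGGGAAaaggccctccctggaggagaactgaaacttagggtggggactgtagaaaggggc
IRF1: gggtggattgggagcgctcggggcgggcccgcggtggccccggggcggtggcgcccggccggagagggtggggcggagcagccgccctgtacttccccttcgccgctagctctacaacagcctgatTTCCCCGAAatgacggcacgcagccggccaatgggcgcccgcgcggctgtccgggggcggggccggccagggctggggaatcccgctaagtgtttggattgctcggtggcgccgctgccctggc

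The matches are letters in a window and were not tested for binding. In the IFIH1 window the ISRE cores lie at bases -159 to -150, -153 to -144 and -21 to -12 from the start, the first 2 on the minus strand of the gene. The GAS element lies at -63 to -55 in IRF9 and at -124 to -116 in IRF1. The ETS core GGAAGT, the type of site bound by the ETS family to which EHF belongs, was present in the windows of IFNAR1, JAK1, STAT2 and IRF1 but not in those of IFIH1 and IRF9, and stood in 22.8% of all promoters. The CDX-type sites TTTATGG and TTTATTG were in none of the 6 windows and in 2.54% and 4% of all promoters.

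Measured per exon length, on the deposited log2 RPKM scale, the receptor chains were the lower and JAK1 and IRF3 the higher of the constitutive genes. In EV cells the log2 RPKM level was 4.87 ± 0.32 for IRF3, 4.04 ± 0.084 for JAK1, 2.82 ± 0.33 for IFNAR1 and 2.22 ± 0.12 for IFNAR2 (mean ± SD, n = 3). IFIH1 was the lowest member in EV cells, at a log2 RPKM level of -0.035 ± 0.27. In EHF+CDX1 cells IFIH1 stood at 3.49 ± 0.076 on the same scale, above both receptor chains, and IRF7 at 4.92 ± 0.13 and IRF9 at 4.72 ± 0.12 were the highest members. The line means of the constitutive genes apart from IFNAR2 spanned at most 1.32-fold in CPM between the highest and the lowest line. Those of the inducible genes spanned 2.46-fold (IRF1) to 10.9-fold (IFIH1).

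**Figure D1:**
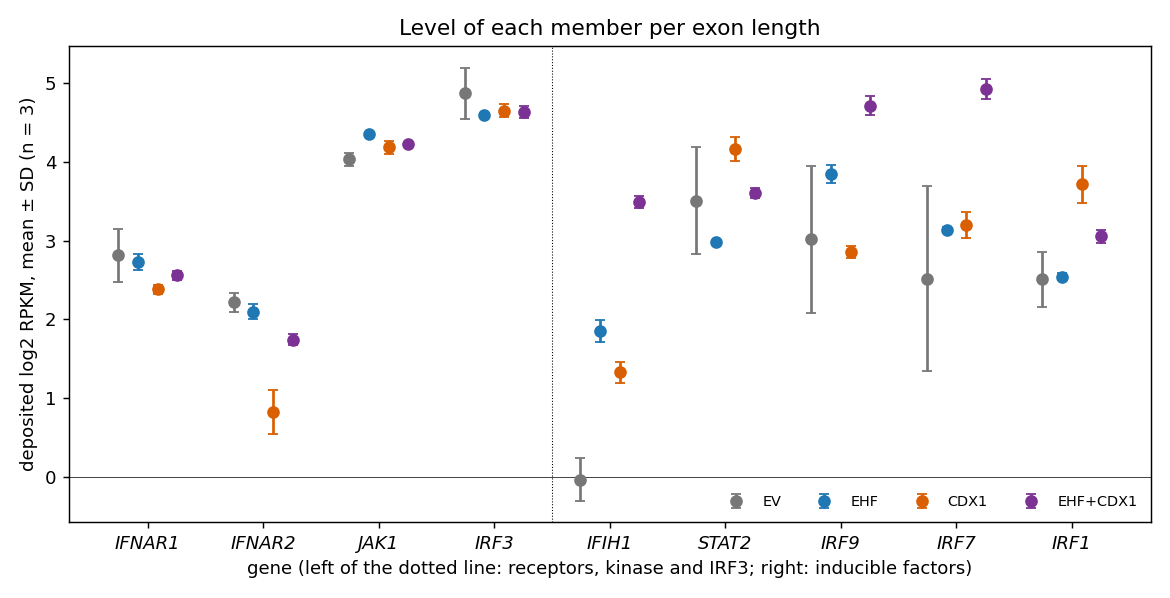
Level of each member per exon length: the y axis is the deposited log2 RPKM value and each point the mean of 3 libraries of a line with its SD. Constitutive genes, left of the dotted line, lie close together across lines except IFNAR2 in CDX1 cells (0.83 ± 0.28), while IFIH1 runs from -0.035 in EV to 3.49 in EHF+CDX1 cells.

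IFNAR1 (Entrez 3454, chr21:33324395-33359864), the signalling chain of the type I interferon receptor, stood at 42.5, 41.3 and 60.5 CPM in EV, 40.6, 45.6 and 46.6 in EHF, 34.6, 36.7 and 37.9 in CDX1, and 38.9, 39.0 and 41.2 in EHF+CDX1 libraries. The CDX1 libraries were all below those of the other lines, by little, and the highest value was that of EV replicate 3. No comparison passed the 1.5-fold test. The log2 fold change was -0.41 in CDX1 against EV cells (SE 0.13, edgeR adjusted p = 0.017) and -0.28 in EHF+CDX1 against EV cells (SE 0.13, edgeR adjusted p = 0.13).

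IFNAR2 (Entrez 3455, chr21:33229938-33265664), the chain that binds interferon with the higher affinity, was the exception among the constitutive genes. It stood at 13.7, 14.9 and 16.3 CPM in EV and 13.4, 14.5 and 15.2 in EHF libraries, at 5.39, 4.75 and 3.76 in CDX1 libraries, and at 11.2, 11.8 and 10.8 in EHF+CDX1 libraries. The CDX1 libraries lay below all others without overlap, and the EHF+CDX1 libraries lay between them and the EV libraries. In CDX1 cells IFNAR2 fell 3.23-fold against EV cells (log2 fold change -1.69, SE 0.14, edgeR adjusted p = 6.34e-07), a call kept under all 21 alternatives. It was 2.44-fold higher in EHF+CDX1 than in CDX1 cells (log2 fold change 1.29, SE 0.14, edgeR adjusted p = 7.26e-06), a call lost in the limma fits (log2 fold change 0.92 with voom and 0.91 with the deposited values). The log2 fold change of EHF+CDX1 against EV cells was -0.40 (SE 0.14, edgeR adjusted p = 0.0383), short of the 1.5-fold test. Exons of IFNAR2 are shared with the annotated readthrough gene IFNAR2-IL10RB on the same strand and with IL10RB-DT on the other, which covered 27.7% of its annotated exon bases in GENCODE, so reads there are uncertain. IL10RB-DT itself averaged 0.280 to 0.469 CPM across the lines.

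JAK1 (Entrez 3716, chr1:64833229-65067746), the kinase shared by type I, II and III interferon receptors, stood at 81.1, 80.6 and 87.6 CPM in EV, 98.6, 99.8 and 98.8 in EHF, 119, 100.7 and 110 in CDX1, and 92.3, 89.0 and 91.2 in EHF+CDX1 libraries. The EV libraries were the lowest and the CDX1 libraries the highest, without overlap between any of the lines, but with total counts or with the deposited log2 RPKM the EHF line stood above the CDX1 line. The differences were small, with a log2 fold change of 0.40 in CDX1 (SE 0.082, edgeR adjusted p = 0.000867) and 0.25 in EHF against EV cells (SE 0.082, edgeR adjusted p = 0.0352), and none passed the 1.5-fold test. Neighbouring lines in the order CDX1, EHF, EHF+CDX1 and EV did not differ beyond their spread, with edgeR adjusted p from 0.125 to 0.413.

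IRF3 (Entrez 3661, chr19:49659572-49665857), the latent factor activated downstream of the sensors, stood at 66.5, 69.1 and 96.6 CPM in EV, 60.2, 62.3 and 60.7 in EHF, 72.3, 78.8 and 73.0 in CDX1, and 63.8, 65.2 and 59.3 in EHF+CDX1 libraries. Apart from EV replicate 3, all 11 values lay between 59.3 and 78.8 CPM. No comparison of IRF3 passed the test against no change, the lowest edgeR adjusted p being 0.0599. IRF3 shares 19% of its annotated exon bases with BCL2L12 on the opposite strand, which averaged 31.3 CPM in EV and 62.1 in CDX1 cells. The strand setting of the counting is not given in the sources used here, so reads of the 2 genes may not have been separated.

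**Figure D2:**
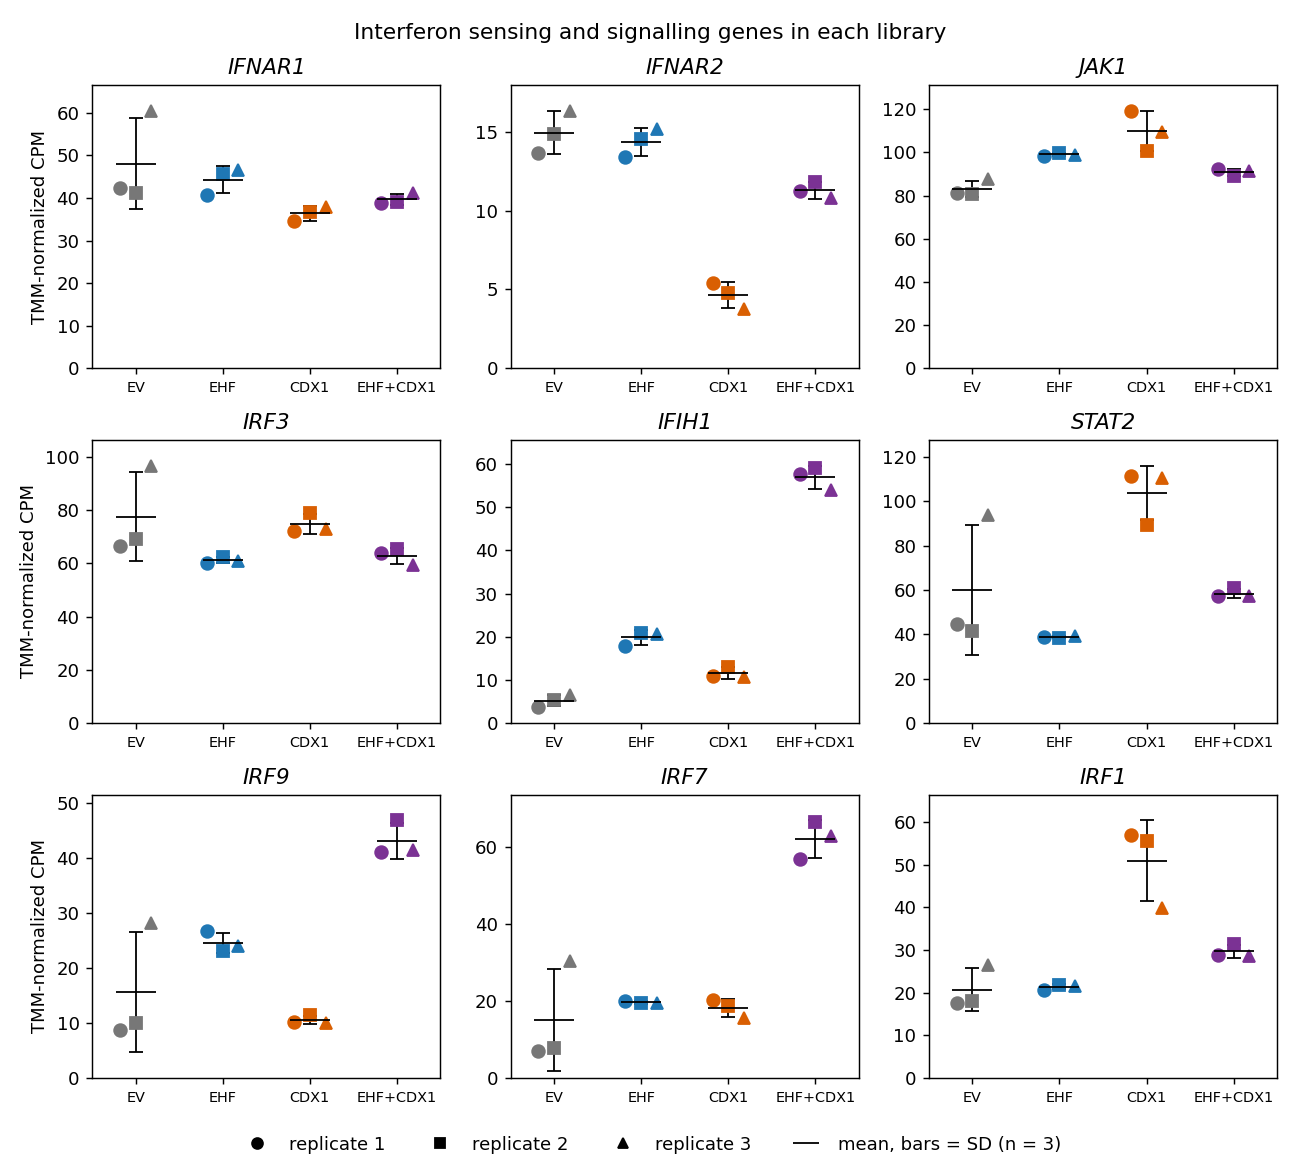
TMM-normalized CPM of each of the 9 genes in each of the 12 libraries, by line on the x axis, with the mean and SD of 3 libraries. All EHF+CDX1 libraries lie above all others for IFIH1 (53.97 to 59.2 CPM), IRF9 and IRF7, all CDX1 libraries lie lowest for IFNAR2, and EV replicate 3 (triangle) lies above the other EV libraries in each panel.

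IFIH1 (Entrez 64135, chr2:162267074-162318684), which encodes the sensor MDA5, was the member with the clearest order of lines. It stood at 3.83, 5.44 and 6.43 CPM in EV, 10.9, 13.1 and 10.6 in CDX1, 17.9, 20.9 and 20.7 in EHF, and 57.7, 59.2 and 53.97 in EHF+CDX1 libraries. The lines did not overlap, and each of the 3 neighbouring pairs in this order differed in the test against no change. EHF against CDX1 cells was short of the 1.5-fold test (log2 fold change 0.79, SE 0.16, edgeR adjusted p = 0.000797). That value ranged from 0.52 with the deposited log2 RPKM to 1.16 with total counts. IFIH1 rose 3.75-fold in EHF against EV cells (log2 fold change 1.91, SE 0.17, edgeR adjusted p = 6.4e-06) and 2.17-fold in CDX1 against EV cells (log2 fold change 1.12, SE 0.16, edgeR adjusted p = 6.76e-05). In EHF+CDX1 cells it rose 10.7-fold (log2 fold change 3.43, SE 0.17, edgeR adjusted p = 6.88e-08), and it was 2.86-fold above the EHF line and 4.94-fold above the CDX1 line. The interaction, which is the log2 fold change of EHF+CDX1 over CDX1 minus that of EHF over EV cells, was 0.40 (95% interval -0.092 to 0.89, edgeR adjusted p = 0.148). The rise in CDX1 cells fell short of the 1.5-fold test when total counts were used without normalization factors (log2 fold change 0.80), a scaling that moved the median of all genes from -0.028 to -0.37 in that comparison.

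STAT2 (Entrez 6773, chr12:56341597-56360107), the STAT specific to the type I and type III pathway, stood at 44.5, 41.6 and 93.9 CPM in EV, 38.7, 38.4 and 39.1 in EHF, 111, 89.4 and 110 in CDX1, and 57.1, 60.8 and 57.1 in EHF+CDX1 libraries. It was highest in the CDX1 libraries, and EV replicate 3 lay within their range. The log2 fold change in CDX1 against EV cells was 0.78 (SE 0.25, edgeR adjusted p = 0.013), short of the 1.5-fold test, and 1.27 (SE 0.086) without EV replicate 3, which passed it. STAT2 was 2.68-fold lower in EHF than in CDX1 cells (log2 fold change -1.42, SE 0.25, edgeR adjusted p = 0.00031), and this call was lost in the limma fits (-1.18). In EHF+CDX1 against CDX1 cells the log2 fold change was -0.83 (SE 0.25, edgeR adjusted p = 0.0101), short of the 1.5-fold test with all libraries. Against EV cells the log2 fold change in EHF+CDX1 cells was -0.045 (SE 0.24) with all libraries and turned to 0.44 without EV replicate 3.

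IRF9 (Entrez 10379, chr14:24161265-24166565), the DNA-binding subunit of ISGF3, stood at 8.74, 9.94 and 28.2 CPM in EV, 26.7, 23.1 and 23.9 in EHF, 10.1, 11.4 and 10.0 in CDX1, and 41.1, 46.8 and 41.3 in EHF+CDX1 libraries. EHF+CDX1 libraries were above all others, and EV replicate 3 stood just above the EHF libraries while the other 2 EV libraries stood near the CDX1 libraries. IRF9 was 2.71-fold higher in EHF+CDX1 than in EV cells (log2 fold change 1.44, SE 0.34, edgeR adjusted p = 0.00642, and 0.0441 in the 1.5-fold test), a call lost under 14 of 21 alternatives, among them the omission of any 1 library other than EV replicate 3. It was 4.10-fold higher in EHF+CDX1 than in CDX1 cells (log2 fold change 2.04, SE 0.34, edgeR adjusted p = 0.000238). Without EV replicate 3 IRF9 was 4.62-fold higher in EHF+CDX1 and 2.62-fold higher in EHF than in EV cells, and both passed the 1.5-fold test. Of its annotated exon bases, 27.2% are shared with unnamed GENCODE genes.

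IRF7 (Entrez 3665, chr11:612555-615950), the factor that amplifies interferon gene transcription, stood at 7.15, 7.81 and 30.5 CPM in EV, 20.1, 19.6 and 19.4 in EHF, 20.3, 18.7 and 15.6 in CDX1, and 56.9, 66.4 and 62.96 in EHF+CDX1 libraries. The EHF and CDX1 lines overlapped, the EHF+CDX1 libraries lay above all others, and EV replicate 3 lay above every EHF and CDX1 library. IRF7 rose 4.001-fold in EHF+CDX1 against EV cells (log2 fold change 2.0, SE 0.43, edgeR adjusted p = 0.00359) and was 3.41-fold above CDX1 cells (log2 fold change 1.77, SE 0.42, edgeR adjusted p = 0.00279). The call against EV cells was lost without EHF+CDX1 replicate 2 (log2 fold change 1.97) and with only the libraries compared (log2 fold change 2.02). Against EHF cells IRF7 was 3.15-fold higher (log2 fold change 1.66, SE 0.42, edgeR adjusted p = 0.0279), short of the 1.5-fold test. Without EV replicate 3 the rise in EHF+CDX1 cells was 8.29-fold, and the rises of 2.63-fold in EHF and 2.43-fold in CDX1 cells passed the 1.5-fold test as well. With all libraries the log2 fold changes of those 2 lines were 0.34 (SE 0.42) and 0.23 (SE 0.42), and neither passed.

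IRF1 (Entrez 3659, chr5:132481609-132490773), the factor for antigen presentation and interferon genes, was highest in CDX1 cells. It stood at 17.5, 18.2 and 26.5 CPM in EV, 20.7, 21.8 and 21.7 in EHF, 57.1, 55.7 and 39.98 in CDX1, and 28.9, 31.4 and 28.7 in EHF+CDX1 libraries. The CDX1 libraries were above all others and the EHF+CDX1 libraries came next, also without overlap. IRF1 rose 2.44-fold in CDX1 against EV cells (log2 fold change 1.29, SE 0.17, edgeR adjusted p = 2.73e-05), a call kept under all 21 alternatives. The log2 fold change in EHF+CDX1 against EV cells was 0.51 (SE 0.17, edgeR adjusted p = 0.0343), short of the 1.5-fold test, and against CDX1 cells it was -0.78 (SE 0.17, edgeR adjusted p = 0.00137), also short of it. Its antisense gene IRF1-AS1, which shares exon bases with it, averaged 0.560 CPM in EV and 1.72 CPM in CDX1 cells.

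Counted over the 9 genes, EHF cells had 1 member higher than EV cells in the 1.5-fold test (IFIH1) and 0 lower, while 5.68% and 2.65% of all genes tested were called in these directions. CDX1 cells had 2 higher (IFIH1 and IRF1) and 1 lower (IFNAR2), against 21.3% and 23.3% of all genes. EHF+CDX1 cells had 3 higher (IFIH1, IRF9 and IRF7) and 0 lower, against 7.3% and 3.13% of all genes. The 3 comparisons share the EV libraries. In EHF+CDX1 against EV cells the median log2 fold change was 1.44 over the 5 inducible genes and -0.29 over the 4 constitutive genes, beside -0.027 over all genes tested. The inducible median is the value of IRF9, whose call was often lost, and STAT2 (-0.045) and IRF1 (0.51) were not called.

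Between the other lines, EHF+CDX1 cells had 1 member above EHF cells (IFIH1) and 0 below, with backgrounds of 2.49% and 0.189%. Without EV replicate 3, or with only the libraries compared, IRF7 (log2 fold change 1.66 in both) and IRF9 (0.82 and 0.84) were called higher as well, making 3, where 3.34% and 3.79% of all genes were called higher. EHF+CDX1 cells had 4 members above CDX1 cells (IFNAR2, IFIH1, IRF9 and IRF7) and 0 below, with backgrounds of 22.3% and 18.7%. Without EV replicate 3, STAT2 (log2 fold change -0.83) and IRF1 (-0.77) were called lower as well, where 22.3% of all genes were. STAT2 was also called lower with only the libraries compared (-0.81, background 21.8%), and IRF1 without CDX1 replicate 3 (-0.94, background 17.5%). EHF cells had 2 members above CDX1 cells (IFNAR2 and IRF9) and 2 below (STAT2 and IRF1), with backgrounds of 21.2% and 19.1%, so these shares were read against a table in which large parts of all genes differed. The call of IRF9 there was lost in the limma and DESeq2 fits and without any 1 library of the 2 lines. The interaction was called for 1 member in the higher direction, IFNAR2 (1.34), where 20.2% of all genes were called. That call was lost in both limma fits. In the lower direction 0 members were called, where 18% of all genes were. The interaction of IRF9 (1.41, SE 0.47, edgeR adjusted p = 0.0227) and IRF7 (1.43, SE 0.59, edgeR adjusted p = 0.0545) was as large but not called. Without EV replicate 3 these 2 values were 0.65 and 0.38. In the test against no change, in either direction, 2 members passed in EHF against EV cells (30.1% of all genes), 6 in CDX1 against EV (68.9%), 5 in EHF+CDX1 against EV (33.6%), 2 in EHF+CDX1 against EHF (9.78%), 7 in EHF+CDX1 against CDX1 (67.2%), 5 in EHF against CDX1 (66.2%) and 4 in the interaction (58.5%).

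**Figure D3:**
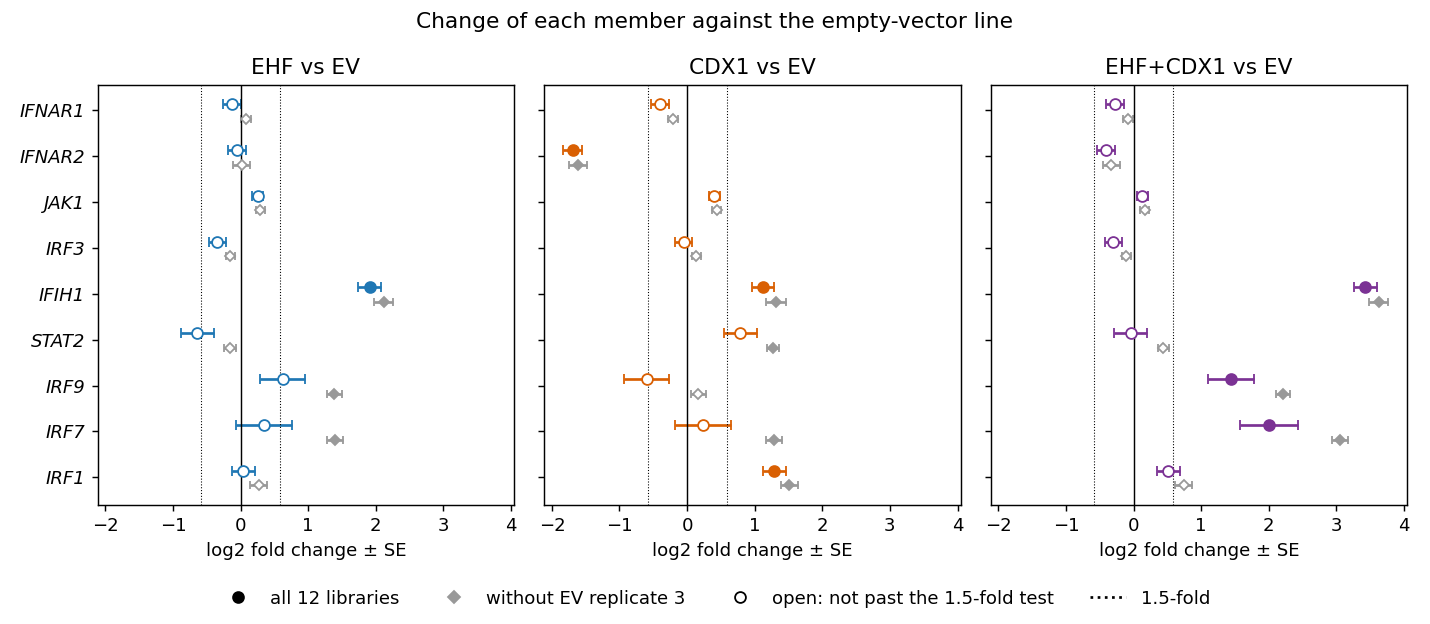
Log2 fold change of each member against EV cells with its SE, from all 12 libraries (circles) and without EV replicate 3 (diamonds), where filled symbols passed the 1.5-fold test and dotted lines mark 1.5-fold. IFIH1 is filled in all 3 panels, and leaving out EV replicate 3 moves IRF7 in EHF+CDX1 cells from 2.0 to 3.05.

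EV replicate 3 bears on the inducible genes unevenly. Over the mean of the other 2 EV libraries it stood 4.08-fold higher for IRF7, 3.02-fold for IRF9 and 2.18-fold for STAT2, compared with 1.39-fold for IFIH1, 1.49-fold for IRF1 and 1.08-fold to 1.45-fold for the constitutive genes. Without it 3 members were higher in EHF than in EV cells (IFIH1, IRF9 and IRF7, background 9.51%). In CDX1 cells 4 were then higher (IFIH1, STAT2, IRF7 and IRF1, background 26.3%) and 1 lower (IFNAR2, background 24.8%), and the 3 higher members of EHF+CDX1 cells were again IFIH1, IRF9 and IRF7 (background 11.2%). The interaction was then called for IFNAR2 in the higher direction (background 23.3%) and for IRF1 in the lower direction (background 24.4%). The part of this library's difference in the values of EV cells was not tested.

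Beyond the 9 genes, the pathway was followed through lists of other sensors, ligands, receptors, regulators and targets. Their counts stand beside the shares of all genes called higher and lower against EV cells, 5.68% and 2.65% in EHF, 21.3% and 23.3% in CDX1 and 7.3% and 3.13% in EHF+CDX1 cells. Of 11 tested genes of RNA and DNA sensing, 4 rose in EHF+CDX1 against EV cells (RIGI, DHX58, TLR3 and IFI16) and 0 fell, with a median log2 fold change of 0.46. IFI16 passed the filter of 0.5 CPM only through the EHF+CDX1 libraries. RIGI, the sister sensor of IFIH1, averaged 18.8 ± 0.99 CPM in EV, 22.1 ± 1.5 in EHF, 6.82 ± 0.92 in CDX1 and 59.9 ± 2.2 in EHF+CDX1 cells. It fell in CDX1 cells (log2 fold change -1.46, SE 0.11, edgeR adjusted p = 2.51e-07), where IFIH1 rose. In CDX1 cells 4 of these genes fell (RIGI, STING1, MAVS and IKBKE) and 2 rose (TICAM1 and TRIM25), the latter a share near that of all genes (21.3%), and in EHF cells 0 were called. IKBKE, a kinase that activates IRF3 and IRF7, averaged 5.98 CPM in EV, 0.747 in CDX1 and 9.84 in EHF+CDX1 cells. TICAM1, the adaptor of TLR3, averaged 51.9 CPM in EV and 218 in CDX1 cells.

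Of the 22 interferon genes listed, 4 were tested, and 3 of these rose in EHF+CDX1 against EV cells, the type III interferons IFNL1, IFNL2 and IFNL3. These 3 passed the filter of 0.5 CPM only through the EHF+CDX1 libraries, so the share of tested genes that rose was largely set by the filter. Their reads remained few, at 73, 40 and 26 for IFNL1, 52, 48 and 11 for IFNL2 and 59, 54 and 18 for IFNL3 in the EHF+CDX1 libraries, and at most 12 in any other library. IFNL2 and IFNL3 are near-identical copies, so the split between them is uncertain. IFNB1 had at most 1 read in any library and IFNG had 0, a count that allows up to 3 reads per library. In EHF cells 0 and in CDX1 cells 1 (IFNL3) of the 4 tested genes were called higher.

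Among 12 other receptors, kinases and STATs, all tested, the median log2 fold change against EV cells was -0.098 in EHF, 0.040 in CDX1 and 0.016 in EHF+CDX1 cells. In EHF cells 1 of them rose (JAK2) and 1 fell (STAT5A). In CDX1 cells 0 rose and 4 fell, beside 21.3% and 23.3% of all genes. In EHF+CDX1 cells 1 rose and 0 fell, beside 7.3% and 3.13% of all genes. These counts depended on EV replicate 3. Without it 4 rose and 3 fell in CDX1 cells, beside 26.3% and 24.8% of all genes. In EHF+CDX1 cells 3 then rose and 0 fell, where 11.2% of all genes were called higher. JAK2, a kinase of the receptor for type II interferon, averaged 4.90 CPM in EV, 9.71 in EHF, 6.76 in CDX1 and 9.03 in EHF+CDX1 cells. IFNGR1, a chain of the receptor for type II interferon, averaged 49.9 ± 24 CPM in EV and 28.7 ± 2.0 in EHF+CDX1 cells. It passed no 1.5-fold test against EV cells with all libraries. The EV mean of IFNGR1 was raised by EV replicate 3, with 830, 760 and 4249 reads in libraries of 21234954, 19305351 and 55958129 total counts.

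Of 4 tested other IRF factors, 1 rose in EHF+CDX1 cells, IRF8, which had 0 reads in each EV library and averaged 3.70 CPM in EHF+CDX1 cells. IRF8 passed the filter of 0.5 CPM only through the EHF+CDX1 libraries. In CDX1 cells IRF2 rose, from 6.68 CPM in EV to 15.2 CPM, and IRF5 was not called in any comparison with EV cells. Of 16 negative regulators, 3 rose in EHF+CDX1 cells. These were USP18, which binds IFNAR2 and limits signalling, with a log2 fold change of 2.33 (SE 0.15), SOCS1, an inhibitor of the JAK kinases, with 1.05 (SE 0.15), and TRIM21 with 0.91 (SE 0.14). SOCS1 averaged 4.01 CPM in EV, 15.2 in EHF, 10.4 in CDX1 and 8.30 in EHF+CDX1 cells and was called in each line against EV cells, while USP18 averaged 3.33, 6.25, 2.60 and 16.7 CPM in these lines and was called in EHF+CDX1 cells only. In CDX1 cells 4 of the 16 rose and 2 fell, shares near or below those of all genes (21.3% and 23.3%).

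Of 20 interferon-stimulated readouts, all 20 rose in EHF+CDX1 against EV cells, with a median log2 fold change of 4.88. IFI44L, OAS2, RSAD2 and XAF1 would not have passed the filter of 0.5 CPM without the EHF+CDX1 libraries, so their part in this count was largely set by the filter. In EHF cells 9 rose and 0 fell, with a median of 1.21, and in CDX1 cells 1 rose and 4 fell, with a median of -0.25, shares near or below those of all genes (21.3% and 23.3%). IFIT1, an inhibitor of viral RNA translation, averaged 1.93 ± 0.61 CPM in EV, 10.8 ± 0.34 in EHF, 1.17 ± 0.26 in CDX1 and 96.1 ± 5.1 in EHF+CDX1 cells. MX1 averaged 0.791 ± 0.82 and IFI27 1.11 ± 0.33 CPM in EV cells, and they reached 48.4 ± 2.9 and 58.2 ± 4.7 CPM in EHF+CDX1 cells. The ISRE core stood in 13 and the GAS element in 6 of the 17 with a promoter entry. Of 9 GAS-type readouts with a promoter entry, 5 held the ISRE core and 4 the GAS element. Of 9 tested GAS-type readouts, 4 rose in EHF+CDX1 cells (GBP1, CXCL10, CXCL11 and PSMB9), and 3 in CDX1 cells (CXCL11, WARS1 and ICAM1), beside 21.3% of all genes. GBP1, CXCL10 and CXCL11 passed the filter of 0.5 CPM only through the EHF+CDX1 libraries, so their rise there was largely set by the filter. CXCL11 had 5, 4 and 2 reads in the CDX1 libraries and 0, 0 and 1 in the EV libraries. PSMB9, a subunit of the immunoproteasome, averaged 1.58 CPM in EV, 5.92 in EHF, 0.852 in CDX1 and 12.02 in EHF+CDX1 cells.

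Without EV replicate 3 the 20 readouts remained called in EHF+CDX1 cells and 12 were called in EHF cells. In CDX1 cells 3 were then higher and 3 lower, beside 26.3% and 24.8% of all genes. In that library itself the readouts stood above the other 2 EV libraries in 15 of 20 genes, with a median log2 ratio of 0.72, compared with 0.065 over all genes tested. Summed leukocyte markers ranged from 0.568 to 1.76 CPM in EV, 25.6 to 27.9 in EHF, 11.4 to 14.6 in CDX1 and 34.0 to 34.9 in EHF+CDX1 libraries, with PTPRC at or near 0. ITGAM made up most of the sum in EHF and CDX1 cells, with CD14 at 3.24 CPM in CDX1 cells. In EHF+CDX1 cells LYZ (18.5 CPM) and ITGAM (14.9 CPM) made up most of it. Plasmacytoid dendritic markers summed to at most 0.129 CPM. Fibroblast markers summed to 34.5 to 76.7 CPM in EV and 168 to 220 CPM in CDX1 libraries, mostly from COL1A1. The part of these markers in the interferon genes was not tested.

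**Figure D4:**
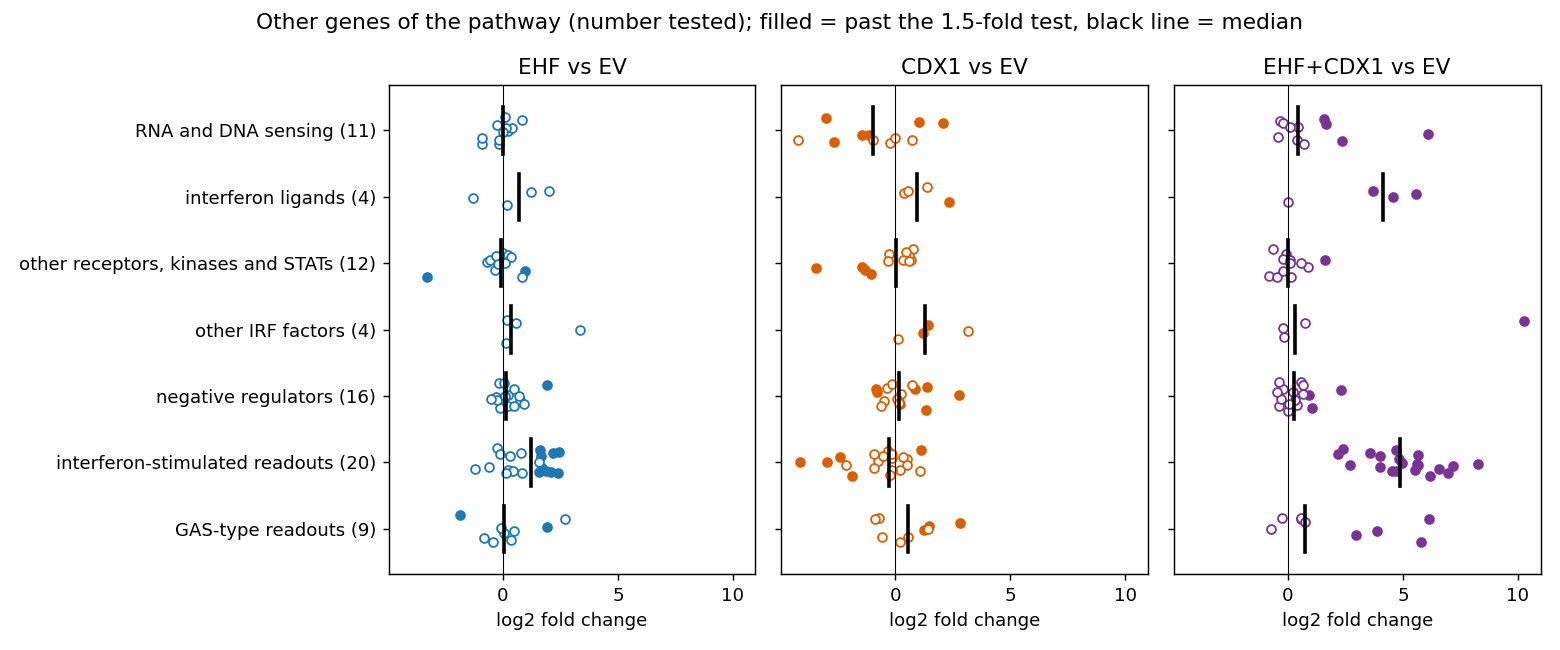
Log2 fold change of each tested gene of the 7 pathway lists against EV cells, by list (number of genes tested in brackets), filled where the 1.5-fold test was passed, with the median of the list as a black line. The readouts are all filled on the right in EHF+CDX1 cells (median 4.88), while their median is -0.25 in CDX1 cells. Some genes passed the filter of 0.5 CPM only through the EHF+CDX1 libraries. Values of genes with almost no reads in a line, such as IRF8, depend on the prior count.

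Across the 12 libraries, the genes with the profile most like each member were taken by Pearson correlation of log2 CPM over the 12448 genes whose mean log2 CPM reached 1. For IFIH1 these were SAMD9 (r = 0.98) and IFI35 (r = 0.98), for IRF7 HELZ2 (r = 0.97) and SLC4A2 (r = 0.97), and for IRF9 LAMP3 (r = 0.99) and TMEM131L (r = 0.97). IRF1 was followed by TNFAIP3 (r = 0.99) and FGF8 (r = 0.98), STAT2 by LSG1 and KRT80 (r = 0.98 each) and IFNAR2 by LINC02458 and CYP4F22 (r = 0.99 each). JAK1 was followed by PDZD8 and GOLM1 (r = 0.98 each), IRF3 by VARS2 and DCAF8 (r = 0.97 each) and IFNAR1 by C5AR1 and ITPRIPL2 (r = 0.96 each). The 12 points share 4 lines, so these values mostly describe the order of the lines.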

How the data were processed

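RNA-seq libraries of 4 HCT116 lines, 3 per line, were grouped by their titles. The authors deposited raw counts per gene, made by aligning reads to GRCh38/hg38 with Subread, keeping uniquely mapped reads and counting RefSeq exons with featureCounts, at version 2.0.0 according to the submitters' processing notes. The authors also deposited log2 RPKM values, made with voom quantile normalization, and these were used here to compare levels between genes and, as an alternative, between lines. Of 28395 genes in the deposited counts 550 had no symbol.

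The counts were then modelled with edgeR 4.0.16 under R 4.3.3. Genes with at least 0.5 CPM in at least 3 libraries were kept (15853 genes, leaving out 0.0585% of the counts), TMM factors were 0.799 to 0.845 in CDX1 libraries and 0.973 to 1.09 in the others, and 1 quasi-likelihood model with the line as its only term was fitted to all 12 libraries. Calls of higher or lower used edgeR's glmTreat with a limit of 1.5-fold and a threshold of 0.05 on p-values adjusted over all genes (Benjamini-Hochberg). Fold changes, standard errors and the adjusted p-values printed beside them are those of the same model tested against no change (glmQLFTest), unless the 1.5-fold test is named. A limit of 3 counts corresponded to 0.0375 to 0.207 CPM per library and covers counting error only. Ratios of EV replicate 3 for gene lists used log2 values after adding 0.1 CPM.

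The genes named were the 9 members, the 3 genes of each pathway list with the largest change in EHF+CDX1 against EV cells among those whose mean log2 CPM reached 1, and the 2 genes with the most similar profile per member. DHX58, TLR3, IFI16, IRF8, IFNL1, IFNL2, IFNL3 and other list genes counted as called were named after their values were seen. The members and lists were chosen with earlier results of these data known. Sequences came from RefSeq promoters of GRCh38.p14. Alternatives used limma 3.58.1 and DESeq2 1.42.0. The methods were tested on simulated data. ATAC-seq was not analysed here, and some genes of the pathway lists are not reported here.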

Additional observations from a re-analysis of the deposited data

Results flagged for a closer look

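The EHF effect on IFNAR2 differed between the 2 backgrounds. The log2 fold change of EHF+CDX1 over CDX1 cells exceeded that of EHF over EV cells by 1.34 (SE 0.19, edgeR adjusted p = 0.000105), and all 3 EHF+CDX1 libraries lay above all 3 CDX1 libraries while the EHF and EV libraries overlapped. The call was lost in both limma fits, where the difference was 1.03 (limma adjusted p in the 1.5-fold test 0.0613 and 0.0719). The EHF+CDX1 and CDX1 lines also differ in CDX1 level and in selection, which cannot be told apart from the EHF effect.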

How the results depend on the processing

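The number of members called was recomputed under 21 alternatives. Of 1314 single-member values, 1215 kept their direction and side of the threshold, 32 lost a call, 39 gained one and 28 turned direction, all 28 of them uncalled. The test against no change gave 2 members in EHF, 6 in CDX1 and 5 in EHF+CDX1 cells against EV, 2 in EHF+CDX1 against EHF, 7 in EHF+CDX1 against CDX1 and 4 in the interaction. With only the libraries compared, EHF+CDX1 against EV gave 1 and EHF+CDX1 against EHF 3. Both limma fits, with voom or with the deposited log2 RPKM, gave 2 in EHF against CDX1 and 0 in the interaction, and total counts gave 3 in the interaction. With each library left out in turn, the counts ranged from 1 to 3 in EHF against EV, 3 to 5 in CDX1 against EV, 1 to 3 in EHF+CDX1 against EV, 1 to 3 in EHF+CDX1 against EHF, 4 to 6 in EHF+CDX1 against CDX1, 3 to 5 in EHF against CDX1 and 1 to 3 in the interaction. EHF+CDX1 against EV fell to 1 without EHF+CDX1 replicate 2, and EHF+CDX1 against EHF rose to 3 without EV replicate 3. The interaction rose to 3 without EV replicate 1 or 2, where IRF9 and IRF7 were called as well. It rose to 2 without EV replicate 3 or CDX1 replicate 3, where IRF1 was called lower. In EHF against CDX1 the call of IRF9 was lost without any 1 of the 6 libraries of these lines (1.17 to 1.27). A replicate block left every count of members as it was and turned STAT2 in EHF+CDX1 against EV, to 0.023. Same-numbered libraries did not deviate together (correlations -0.065 to 0.080), so the numbers were not read as pairs.

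Uncalled log2 fold changes that turned when 1 library was left out had these ranges: in EHF against EV, -0.22 to 0.086 for IFNAR1, -0.12 to 0.018 for IFNAR2 and -0.070 to 0.27 for IRF1, with -0.047 without EV replicate 2. In CDX1 against EV they were -0.15 to 0.14 for IRF3, -0.89 to 0.17 for IRF9 and -0.11 to 1.28 for IRF7, with -0.079 without EV replicate 2. For STAT2 in EHF+CDX1 against EV the range was -0.25 to 0.44, and in the interaction it was -0.67 to 0.017 for STAT2 and -0.094 to 0.20 for IRF3. One end of each range is the value without EV replicate 3. With total counts the turned values were -0.062 for IRF7 in CDX1 against EV, 0.085 for JAK1 and 0.11 for IRF3 in EHF+CDX1 against CDX1, 0.23 for JAK1 and 0.087 for IRF3 in EHF against CDX1 and 0.10 for STAT2 in the interaction. With voom they were -0.023 for IRF1 in EHF against EV, 0.060 for STAT2 in EHF+CDX1 against EV, 0.041 for JAK1 in EHF+CDX1 against CDX1, 0.17 for JAK1 and -0.067 for IRF7 in EHF against CDX1 and 0.026 for STAT2 in the interaction. With the deposited log2 RPKM they were 0.10 for STAT2 in EHF+CDX1 against EV, 0.041 for JAK1 in EHF+CDX1 against CDX1, and 0.17 for JAK1 and -0.056 for IRF7 in EHF against CDX1. The cause was not tested. Over all genes, calls in EHF against EV moved from 1321 to 2043 without EV replicate 3 and to 845 with only the libraries compared, and in EHF+CDX1 against EHF from 425 to 658 and 785, and to between 137 and 154 without each EHF+CDX1 library.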
